A study of Arabidopsis thaliana with 6 samples.

Results

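The WRKY transcription factors are a plant family named for the amino acids at the start of their DNA-binding domain. Its RNA levels are described here for 50 genes in whole Arabidopsis thaliana seedlings of a mutant and of wild type. The 50 were chosen by gene identifier, all were annotated in the reference, and they stand among 23022 genes listed in at least 1 library. The reference names 22 further WRKY genes, of which 17 were listed, and these were not analysed here. Polyadenylated RNA was sequenced from 3 libraries of WT, labelled wild type, and 3 of 17ab. Both genotypes grew for 10 days on upright plates of half-strength medium, seedlings of like size were picked and frozen, and no stress treatment is named. The labels do not give the alleles or mutated genes behind 17ab, the accession of the plants, or whether a library pools 1 plate or several. The series title concerns the unfolded protein response, the signalling that adapts cells to misfolded protein in the endoplasmic reticulum.

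WRKY proteins bind a short DNA element, the W-box, which occurs in many defence genes and in the promoters of WRKY genes themselves. Many family members are induced within minutes to hours by pathogens, wounding, salicylic acid or nutrient shortage, and then activate or repress immunity, camalexin synthesis, senescence and phosphate uptake. Others are present at steady levels and act in development. Group I proteins carry a pair of WRKY domains, and groups II and III carry a single domain that differs in its zinc finger. The annotated coding sequences held the family's exact heptad code in 2 copies in 10 genes, all of group I, and in 1 copy in 38. The remaining 2, WRKY50 and WRKY51, carry a known variant of the heptad.

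The total expected count was 5968854 to 6198230 in WT and 6261789 to 6292461 in 17ab, so a gene with 3 counts lay at 0.477 to 0.503 CPM (counts scaled to the library total). A list of 3 sensors of the unfolded protein response was picked because their RNA fell in 17ab, and other sensors are not given. The log2 fold change was -2.43 (SE 0.14) for BZIP17, -1.68 (SE 0.11) for IRE1A and -0.73 (SE 0.12) for IRE1B. The groups did not overlap in any of them, which their choice by this fall favours, so it is no support. Of all tested genes, 17ab lay wholly below WT in 12.9%. Replicate 3 of WT stood apart for genes tied to salicylic acid. Log2 fold changes of WRKY70, WRKY54, WRKY46 and WRKY60 are given with and without it. Where the RNA of a gene differs in whole seedlings, fewer cells of a type and less RNA per cell cannot be told apart.

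The promoters of the 4 genes below are shown because 3 of them belong to genes that rose in 17ab and hold W-boxes, and the last belongs to WRKY22, the family member that fell. Each runs from 250 bases before to 50 bases after the annotated start of the gene, 5′ to 3′ on the strand of the gene, from the RefSeq genome of build TAIR10.1. Capitals mark each W-box, searched as TTGACC or TTGACT on both strands. WRKY33 lies at chr2:16107985-16108284 on the plus strand, WRKY25 at chr2:12905289-12905588 on the minus strand, WRKY15 at chr2:9924636-9924935 on the plus strand and WRKY22 at chr4:524200-524499 on the minus strand.
WRKY33: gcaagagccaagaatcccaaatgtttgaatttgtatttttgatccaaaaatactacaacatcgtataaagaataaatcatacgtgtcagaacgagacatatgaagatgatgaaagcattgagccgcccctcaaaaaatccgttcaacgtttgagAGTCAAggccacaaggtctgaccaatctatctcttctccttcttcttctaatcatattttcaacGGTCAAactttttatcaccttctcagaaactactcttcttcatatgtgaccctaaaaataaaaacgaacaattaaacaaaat
WRKY25: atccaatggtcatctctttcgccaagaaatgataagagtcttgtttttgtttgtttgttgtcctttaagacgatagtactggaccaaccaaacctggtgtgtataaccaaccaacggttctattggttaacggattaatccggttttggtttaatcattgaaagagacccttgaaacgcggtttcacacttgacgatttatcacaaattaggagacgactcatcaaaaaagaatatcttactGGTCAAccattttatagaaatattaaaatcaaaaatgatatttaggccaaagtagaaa
WRKY15: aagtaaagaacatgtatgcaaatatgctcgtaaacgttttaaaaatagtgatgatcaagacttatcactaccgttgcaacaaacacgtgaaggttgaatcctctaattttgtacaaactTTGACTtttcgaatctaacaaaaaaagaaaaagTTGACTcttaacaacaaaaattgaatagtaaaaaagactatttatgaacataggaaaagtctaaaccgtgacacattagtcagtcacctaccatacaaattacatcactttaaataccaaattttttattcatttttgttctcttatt
WRKY22: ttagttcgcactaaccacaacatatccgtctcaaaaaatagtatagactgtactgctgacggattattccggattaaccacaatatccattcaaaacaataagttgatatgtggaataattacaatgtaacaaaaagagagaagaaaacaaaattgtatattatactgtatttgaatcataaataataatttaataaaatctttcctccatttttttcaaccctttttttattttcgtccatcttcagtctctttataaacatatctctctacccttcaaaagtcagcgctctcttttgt
The W-boxes of WRKY33 began 96 and 32 bases before its start, those of WRKY15 at 131 and 98 bases, and that of WRKY25 at 8 bases. WRKY22 held none in this window, nor did WRKY6 or WRKY18, which also rose.

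Across the family, 28 genes were classed as stress-induced and 22 as other, from general knowledge of their reported induction by pathogens, hormones or nutrient stress and with earlier results of these data known. Enough reads for a test were present for 38 of the 50 genes. In 17ab, WRKY33 (AT2G38470), WRKY25 (AT2G30250), WRKY18 (AT4G31800), WRKY6 (AT1G62300) and WRKY15 (AT2G23320) rose and WRKY22 (AT4G01250) fell, by edgeR's quasi-likelihood test with Benjamini-Hochberg adjustment over 17854 genes at a threshold of 0.05. The 6 called genes were 15.8% of the tested family members, and 14.1% of all tested genes were called, so the family as a whole was called about as often as other genes. By direction, 13.2% of its tested members rose against 7.57% of all genes, and 2.63% fell against 6.51%. Of all called genes 53.8% rose, or 42.8% with an offset for GC content and length, under which WRKY18 alone of the 6 did not pass. All 6 belonged to the stress-induced class, in which 5 of 21 tested genes rose and 1 fell. With a narrower class of 20 genes WRKY15 counts among the others, and 4 of 15 tested stress-induced genes rose, with a median log2 fold change of 0.55. The number of risen members was 3 without WT replicate 2 (WRKY33, WRKY6 and WRKY38), where 4.91% of all genes rose, and 9 without WT replicate 3, where 5.17% did. In each of these fits 40 members were tested, and WRKY38, too low for the main test, is counted among the risen. With 10 to 13 counts in 17ab libraries and 1 to 2 in WT, it passed the filter through 17ab alone.

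The median log2 fold change of the 21 stress-induced genes was 0.36, with 17 above 0 and a range of -0.69 to 1.32. Among the other 17 tested genes the median was 0.11, with 11 above 0 and a range of -0.35 to 0.81, and over all tested genes it was -0.002. Without 17ab replicate 1 the class medians were 0.22 and 0.04, and without WT replicate 3 or 17ab replicate 3 that of the other genes was 0.17 or 0.18. None of these 17 passed in edgeR, where 2 had an unadjusted p under 0.05, and none passed in DESeq2 or in limma, which called 8.06% of all genes and, with a pseudocount of 1 or 0.1, 10.6% or 10%. Over both classes 28 of 38 genes lay above 0, where 49.6% of all genes did, and 13 had an unadjusted p under 0.05, where 27.5% of all genes did. The 17ab libraries lay wholly above WT in 7 stress-induced and 4 other genes, or 11 of 38, where 18.2% of all tested genes did so. They lay wholly below WT in 1 and 2 genes, against 12.9% of all tested genes.

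The same contrast can be read library by library, as the median distance of each library from the WT mean on the log2 scale. Over the stress-induced genes it was 0.06, -0.09 and -0.02 in WT replicates 1 to 3 and 0.35, 0.33 and 0.39 in 17ab, so the genotypes were apart in every library. Over the other genes it was 0.02, 0.07 and -0.06 in WT and 0.07, 0.13 and 0.08 in 17ab, where the highest WT library reached the lowest of 17ab. Summed FPKM (read counts scaled by gene length and library total) of the stress-induced genes was 207.4 to 235.0 in WT and 280.7 to 298.0 in 17ab. For the other genes it was 158.3 to 166.1 in WT and 170.1 to 177.1 in 17ab.

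**Figure D1:**
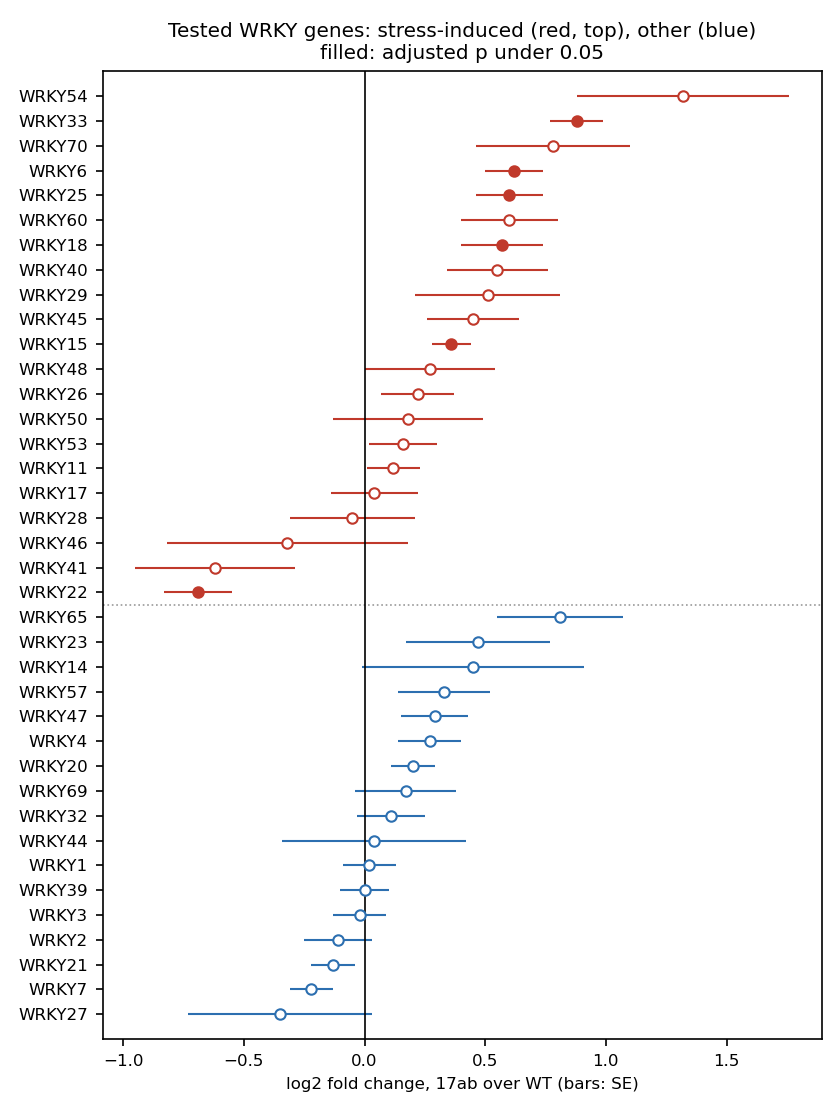
Log2 fold change of 17ab over WT (x axis, bars are SE) for the 38 tested WRKY genes (y axis), stress-induced genes above the dotted line and other genes below it, with filled points past the adjusted threshold of 0.05. Of the 21 stress-induced genes 17 lie above 0 and 6 are filled, and among the other 17 genes 11 lie above 0 and none is filled.

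WRKY levels spanned a wide range. On the FPKM scale, which is per length, WRKY15 was the highest member with a mean of 48.6 over the 6 libraries, and WRKY14 was the lowest tested one with 1.03. A mean of at least 10 FPKM was found in 15 members and a mean under 1 in 11. Within WT, the stress-induced genes varied more between libraries than the others, with a median coefficient of variation of 19.99% against 11.9%. Within 17ab the corresponding medians were 12.2% and 10.3%.

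WRKY33 is a group I activator of camalexin synthesis and of resistance to necrotrophic fungi, and with WRKY25 and WRKY26 it also acts in heat tolerance. Its level was 14.01, 11.31 and 13.95 FPKM in WT replicates 1 to 3 and 23.47, 25.94 and 24.42 in 17ab replicates 1 to 3. The lowest 17ab library was well above the highest WT library. The mean was 13.1 ± 1.54 FPKM (SD, n = 3) in WT and 24.6 ± 1.25 (SD, n = 3) in 17ab, a log2 fold change of 0.88 with an SE of 0.11 (edgeR adjusted p = 0.000156). It was called in all 16 alternatives tried, at 0.78 to 0.95.

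WRKY25, a close relative induced by heat, salt and defence signals, moved the same way. Its level was 8.84, 6.70 and 7.71 FPKM in WT and 11.69, 11.95 and 12.19 in 17ab. Every 17ab library exceeded every WT library, and the 17ab libraries were close to each other. The mean rose from 7.75 ± 1.07 to 11.9 ± 0.250 FPKM (SD, n = 3 each), a log2 fold change of 0.60 with an SE of 0.14 (edgeR adjusted p = 0.0113). Of the 16 alternatives it missed the threshold in 1, without WT replicate 2, at 0.49 with an adjusted p of 0.0555, where 8.67% of all genes passed. WRKY26, the remaining gene of this group, had a log2 fold change of 0.22 (SE 0.15) and did not pass.

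WRKY18, WRKY40 and WRKY60 encode leucine-zipper WRKY proteins of group IIa that bind each other and restrain or shape basal defence and abscisic acid responses. WRKY18 was at 11.69, 8.73 and 14.67 FPKM in WT and at 14.94, 20.27 and 17.53 in 17ab. The gap between the groups was small, since WT replicate 3 nearly reached 17ab replicate 1. Its mean was 11.7 ± 2.97 FPKM in WT and 17.6 ± 2.67 in 17ab (SD, n = 3 each), and its log2 fold change of 0.57 (SE 0.17) passed narrowly in edgeR (adjusted p = 0.0466). The call held in 6 of the 16 alternatives, with adjusted p from 0.0228 to 0.176.

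WRKY40 (AT1G80840) was at 6.15, 3.79 and 6.65 FPKM in WT and at 8.43, 9.03 and 7.26 in 17ab. The groups did not overlap, yet the difference of 0.55 on the log2 scale (SE 0.21, edgeR adjusted p = 0.102) did not pass, and without WT replicate 2 it was 0.33. WRKY40 was the only member with reads shared out between genes in the deposited counts. WRKY60 (AT2G25000), whose promoter WRKY18 and WRKY40 bind in abscisic acid signalling, was at 6.61, 5.97 and 9.30 FPKM in WT and at 13.81, 8.83 and 11.62 in 17ab. Its groups overlapped by the lowest 17ab library, and its log2 fold change was 0.60 (SE 0.20, edgeR adjusted p = 0.0620). It passed in 4 of the 16 alternatives, among them the fit without WT replicate 3, at 0.79 (edgeR adjusted p = 0.0386), and the fit without 17ab replicate 2, at 0.74 (edgeR adjusted p = 0.0268). With all libraries the 3 genes had log2 fold changes between 0.55 and 0.60, of which 1 passed.

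WRKY6 promotes senescence-linked gene expression and represses PHO1, the gene of the exporter that loads phosphate into the xylem. Its level was 7.43, 7.38 and 7.02 FPKM in WT and 11.50, 10.40 and 12.36 in 17ab. WT libraries were nearly equal and all 17ab libraries were above them. The mean was 7.28 ± 0.224 FPKM in WT and 11.4 ± 0.982 in 17ab (SD, n = 3 each), a log2 fold change of 0.62 with an SE of 0.12 (edgeR adjusted p = 0.00362). It was called in all 16 alternatives, at 0.56 to 0.68. WRKY45, an activator of a PHT1 phosphate transporter gene, had a log2 fold change of 0.45 with an SE of 0.19 (edgeR adjusted p = 0.146).

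WRKY75 (AT5G13080), which acts in phosphate starvation, root hair development and senescence, had too few reads for the test. It was at 0.41, 0.61 and 1.27 FPKM in WT and at 2.21, 0.80 and 1.61 in 17ab, and the groups overlapped. WRKY42, a further regulator of PHO1, had 17 counts in WT and 12 in 17ab and was also too low.

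WRKY15 is a calmodulin-binding protein of group IId that responds to oxidative and salt stress, and it was the most abundant member. Its level was 44.04, 38.87 and 43.77 FPKM in WT and 54.53, 54.08 and 56.35 in 17ab. The groups were clearly apart. The mean rose from 42.2 ± 2.91 to 55.0 ± 1.202 FPKM (SD, n = 3 each), a log2 fold change of 0.36 with an SE of 0.08 (edgeR adjusted p = 0.0103), the smallest among the 5 genes that rose. Without WT replicate 2 it was 0.29 and missed the threshold, with an adjusted p of 0.0570.

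The other genes of group IId did not pass. WRKY11 and WRKY17 are a pair of negative regulators of basal resistance. WRKY11 (AT4G31550) was at 31.13, 42.29 and 32.49 FPKM in WT and at 42.43, 35.80 and 38.64 in 17ab, with a log2 fold change of 0.12 with an SE of 0.11 (edgeR adjusted p = 0.556). WRKY17 (AT2G24570) was at 10.78, 8.29 and 6.54 FPKM in WT and at 9.11, 9.31 and 8.42 in 17ab, with a log2 fold change of 0.04 with an SE of 0.18 (edgeR adjusted p = 0.928). Both overlapped between groups. WRKY7, WRKY21 and WRKY39 had log2 fold changes of -0.22, -0.13 and 0.00, and in the first pair of these the 17ab libraries lay wholly below WT without passing the test.

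WRKY22 acts downstream of the flagellin receptor and its kinase cascade, and also in dark-induced senescence. Its level was 14.63, 15.14 and 14.07 FPKM in WT and 8.31, 10.46 and 8.82 in 17ab. Every 17ab library was below every WT library. The mean was 14.6 ± 0.535 FPKM in WT and 9.20 ± 1.12 in 17ab (SD, n = 3 each), a log2 fold change of -0.69 with an SE of 0.14 (edgeR adjusted p = 0.00448). It was the 1 member called lower in each of the 16 alternatives, at -0.80 to -0.62.

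WRKY29 (AT4G23550), placed beside WRKY22 in the flagellin pathway, did not pass. It was at 2.80, 2.55 and 1.81 FPKM in WT and at 4.81, 2.63 and 2.99 in 17ab. The groups overlapped narrowly, and the log2 fold change was 0.51 (SE 0.30, edgeR adjusted p = 0.308). Without 17ab replicate 1 it was 0.21.

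**Figure D2:**
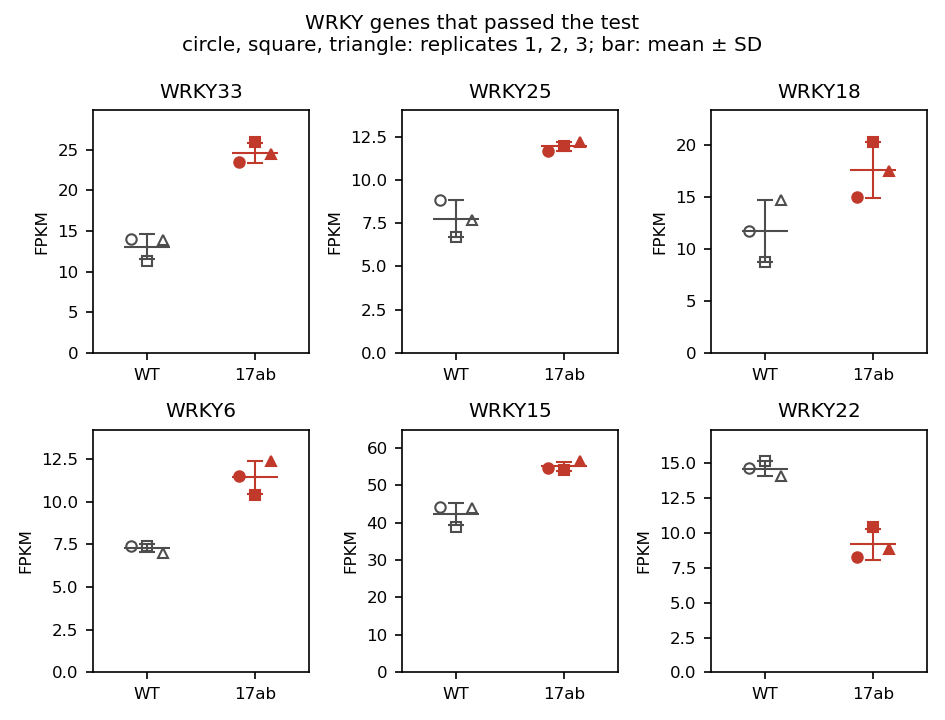
FPKM (y axis, from 0, a scale per panel) of the 6 WRKY genes that passed the test, in WT (open) and 17ab (filled), with a symbol for each replicate and bars for mean ± SD. In each panel the groups do not overlap, with 17ab higher in WRKY33, WRKY25, WRKY18, WRKY6 and WRKY15 and lower in WRKY22, and the gap is narrowest in WRKY18.

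Of the group III genes tied to salicylic acid and senescence, WRKY70, WRKY54 and WRKY46 differed widely between WT libraries, with coefficients of variation of 64.05%, 90.32% and 82.2%. WRKY70 and WRKY54 are close homologues that act between salicylic acid and jasmonate signalling and delay senescence. WRKY70 (AT3G56400) was at 12.05, 7.36 and 26.00 FPKM in WT and at 21.77, 35.06 and 22.07 in 17ab. WT replicate 3 was above 2 of the 17ab libraries, and the log2 fold change of 0.78 with an SE of 0.32 (edgeR adjusted p = 0.127) did not pass. WRKY54 (AT2G40750) was at 1.36, 0.45 and 3.63 FPKM in WT and at 4.12, 5.56 and 4.13 in 17ab. All 17ab libraries were above WT, and its log2 fold change of 1.32 with an SE of 0.44 (edgeR adjusted p = 0.0618), the largest of the 38, did not pass either. Without WT replicate 3 both passed, WRKY70 at 1.40 (edgeR adjusted p = 0.00539) and WRKY54 at 2.29 (edgeR adjusted p = 0.00566). The omission of other libraries moved them the other way, with WRKY70 at 0.44 without WT replicate 2 (edgeR adjusted p = 0.365) and at 0.51 without 17ab replicate 2 (edgeR adjusted p = 0.369). WRKY54 was at 0.85 without WT replicate 2 (edgeR adjusted p = 0.167).

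WRKY46 and WRKY53 act with WRKY70 in basal resistance, and WRKY53 also promotes leaf senescence. WRKY46 (AT2G46400) was at 1.32, 2.15 and 6.33 FPKM in WT and at 2.24, 4.24 and 1.42 in 17ab. Its direction depended on WT replicate 3, with a log2 fold change of -0.32 with an SE of 0.50 (edgeR adjusted p = 0.736) and of 0.56 without that library. WRKY53 (AT4G23810) was at 14.70, 13.11 and 13.39 FPKM in WT and at 14.50, 18.79 and 13.61 in 17ab, with a log2 fold change of 0.16 with an SE of 0.14 (edgeR adjusted p = 0.510). WRKY41, reported to act in defence and seed dormancy, had -0.62 (SE 0.33).

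Over the 5 tested genes of this group, the median distance from the WT mean was -0.10, -0.30 and 0.94 in WT replicates 1 to 3 and 0.04, 0.58 and -0.03 in 17ab. WT replicate 3 was thus higher than every 17ab library by this measure. None of the 5 passed in edgeR, 2 of them with an unadjusted p under 0.05. DESeq2 and limma each called 1 gene of the group, WRKY38, as risen, and it was too low for the edgeR filter. It passed the limma filter, a minimum of 1 FPKM, through the 17ab libraries alone. Of all genes 4.4% rose in DESeq2 and, with a pseudocount of 1 or 0.1, 6.38% or 6.08% in limma.

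**Figure D3:**
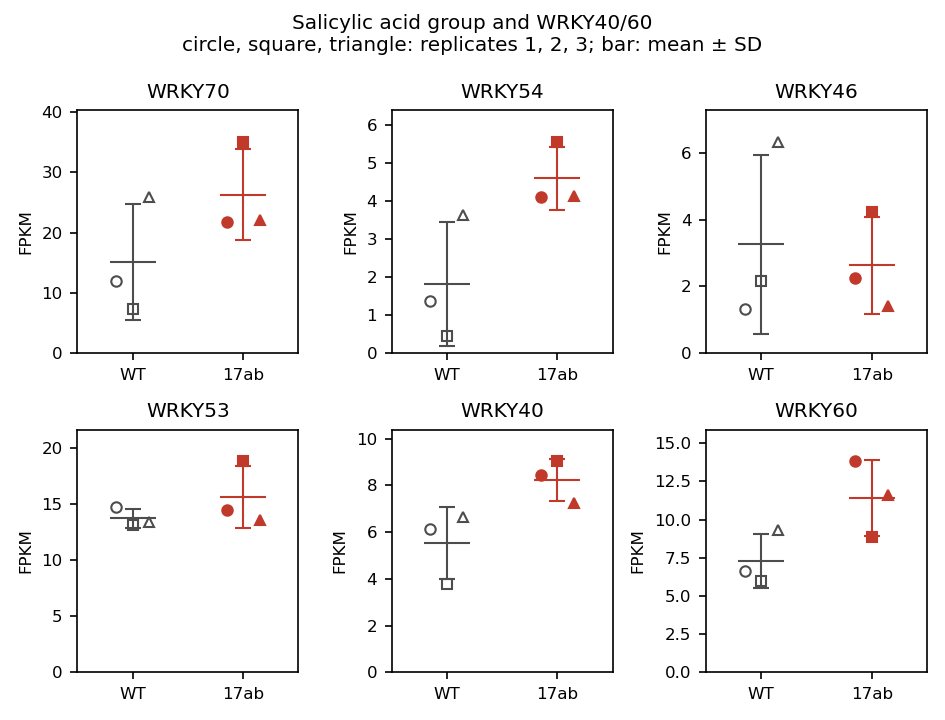
FPKM (y axis, from 0, a scale per panel) of WRKY70, WRKY54, WRKY46, WRKY53, WRKY40 and WRKY60 in WT (open) and 17ab (filled), with a symbol for each replicate and bars for mean ± SD. WT replicate 3 (triangle) is the highest WT library in every panel except that of WRKY53, and none of the 6 genes passed the test.

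The remaining stress-induced genes belong to group IIc. WRKY28, an activator of salicylic acid synthesis, had a log2 fold change of -0.05, WRKY48, a repressor of basal defence, 0.27, and WRKY50, which acts where salicylic acid represses jasmonate signalling, 0.18. None of the 3 passed in edgeR, none had an unadjusted p under 0.05, and none was called in DESeq2 or limma. Their SE were 0.26 to 0.31.

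Among the genes not classed as stress-induced, the 7 members of group I (WRKY1, WRKY2, WRKY3, WRKY4, WRKY20, WRKY32 and WRKY44) had log2 fold changes of -0.11 to 0.27. WRKY2 acts in embryo polarity and pollen, WRKY3 and WRKY4 in resistance to necrotrophs, and WRKY44, also known as TTG2, in trichome and seed coat development. WRKY44 varied in WT, at 2.34, 0.88 and 1.69 FPKM. None of the 7 passed in edgeR, none had an unadjusted p under 0.05, and none was called in DESeq2 or limma. WRKY20 had all 17ab libraries above WT and a log2 fold change of 0.20 with an SE of 0.09 (edgeR adjusted p = 0.184).

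In the mixed remainder, WRKY65 (AT1G29280), singled out after its values were seen, had the smallest p of any family member that did not pass. It was at 2.61, 2.80 and 2.15 FPKM in WT and at 6.13, 3.58 and 3.90 in 17ab, wholly above WT. Its log2 fold change was 0.81 (SE 0.26, edgeR adjusted p = 0.0534), and it was called in 4 alternatives. WRKY23, an auxin-responsive gene of root development, had 0.47, WRKY14 0.45, WRKY57, which acts in drought tolerance, 0.33, WRKY47 0.29, WRKY69 0.17 and WRKY27 -0.35. Of the 7 tested genes here none passed in edgeR and 1 had an unadjusted p under 0.05.

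Of the 50 genes, 12 were too low to test, 7 stress-induced and 5 other. Their reads were summed over the 3 libraries of each genotype and compared as a ratio scaled to library totals, with an exact 95% interval that covers counting error only. WRKY38 and WRKY62 encode a pair of repressors of basal defence that interact with a histone deacetylase. WRKY38 (AT5G22570) had 4 counts in WT and 35 in 17ab, a ratio of 8.51 (3.04 to 32.95), and WRKY62 had 8 and 28, a ratio of 3.40 (1.51 to 8.64). WRKY38 held 1 to 2 counts in each WT library and 10 to 13 in each 17ab library, so its groups were apart.

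WRKY61 (AT1G18860) had 3 counts in WT and 25 in 17ab, a ratio of 8.10 (2.47 to 41.9), and WRKY31 had 5 and 21, a ratio of 4.08 (1.499 to 13.9). WRKY55, the neighbour of WRKY54 on chromosome 2, had 2 and 12, a ratio of 5.83 (1.299 to 53.7). These 5 intervals lay above 1. With no filter on low counts, edgeR called WRKY38 (adjusted p = 0.00514) and WRKY61 (adjusted p = 0.0253), and not WRKY55, WRKY31 or WRKY62 (adjusted p of 0.207, 0.140 and 0.159). In that fit 6.02% of all genes rose.

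WRKY51, WRKY8, WRKY75 and WRKY30 had ratios of 1.95 to 2.11 with intervals that included 1, as did WRKY35 at 1.59, WRKY74 at 0.972 and WRKY42 at 0.686. In all, 10 of the 12 had more reads in 17ab, among them all 7 stress-induced ones. No share over all genes too low to test was counted for this direction or for intervals above 1. These counts are therefore not set apart from low genes at large. Each 17ab library also listed more genes, 21259 to 21429, than any WT library, at 21003 to 21053. In 4 of the 12, WRKY38, WRKY61, WRKY31 and WRKY51, every 17ab library was above every WT library, where 7.12% of all genes too low to test showed this.

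**Figure D4:**
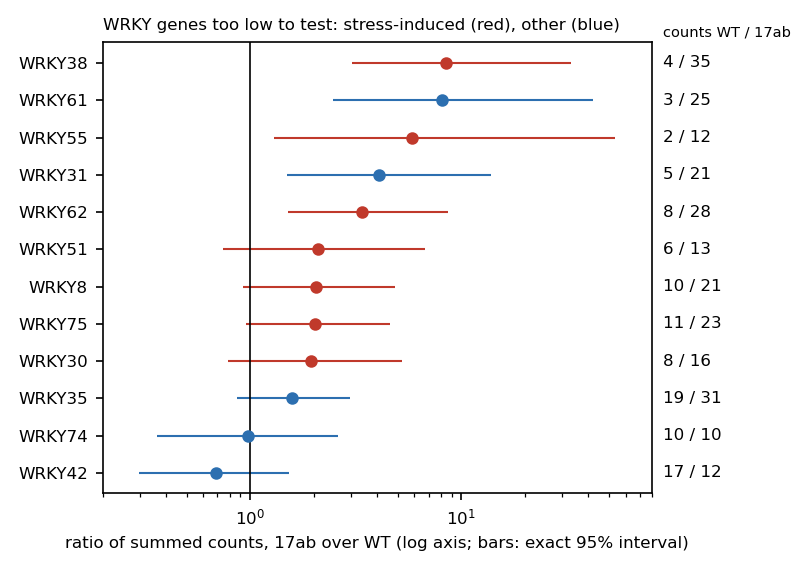
Ratio of summed expected counts, 17ab over WT scaled to library totals (x axis, logarithmic, bars are exact 95% intervals), for the 12 WRKY genes too low to test (y axis), stress-induced in red and other in blue, with the summed counts at the right. The intervals of WRKY38, WRKY61, WRKY55, WRKY31 and WRKY62 lie above 1, and 10 of the 12 points do.

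The W-box content of the promoters shown above was counted over the family. In the 300-base window, 53.6% of stress-induced WRKY promoters (15 of 28) and 13.6% of the others (3 of 22) held a W-box, where 32.4% of all 27443 protein-coding promoters did. At least 2 were found in 32.1% of stress-induced members and in 7.7% of all promoters. In the 1000 bases before the start the shares were 92.9%, 68.2% and 67.3%. Of 13 tested members with a W-box in the 300-base window 3 rose (23.1%), and of 25 without one 2 rose (8%) and 1 fell (4%). Of all tested genes, with or without a W-box, 7.57% rose and 6.51% fell. Of the 18 members with a W-box 15 are of the stress-induced class, so the W-box and the class cannot be told apart. A link between W-boxes and the rise was not tested.

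The core of the element bound by bZIP factors of the unfolded protein response, TGACGTG, was searched in the same way on both strands. It occurred in the 300-base window of 2 members, WRKY32 and WRKY42, neither of them called, and in 3.4% of all promoters. In the 1000 bases before the start it occurred in 6 of 50 members and in 7.1% of all promoters. A match is a run of letters and not a site shown to be bound, and no match says only that the letters are not in the window.

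**Figure D5:**
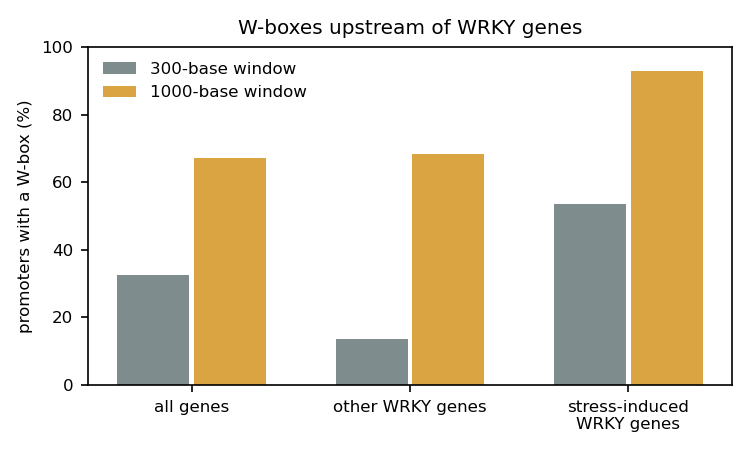
Share of promoters with at least 1 W-box (y axis, percent, from 0) for all protein-coding genes, the 22 other WRKY genes and the 28 stress-induced WRKY genes (x axis), in the 300-base window (grey) and the 1000 bases before the start (orange). The stress-induced genes have the highest bar in both windows, at 53.6% and 92.9%.

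Genes that act with WRKY proteins were taken as lists of mitogen-activated kinases and their VQ-motif partners, and of reported WRKY targets. Of 16 kinase and VQ genes 14 were tested, 4 rose (28.6%, against 7.57% of all genes), none fell, and the median log2 fold change was 0.29 against -0.002 over all genes. MPK3, a kinase that phosphorylates WRKY33, was at 33.86, 34.83 and 35.45 FPKM in WT and at 55.83, 57.74 and 61.79 in 17ab. The groups were far apart, and the log2 fold change was 0.73 (SE 0.07, edgeR adjusted p = 4.66e-05). MPK6 and MPK4, kinases of the same family, had log2 fold changes of 0.01 and -0.02 and did not pass.

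MKK1, a kinase that acts above MPK4, had a log2 fold change of 1.17 with an SE of 0.17 (edgeR adjusted p = 0.000614). SIB1 and SIB2, VQ proteins that bind WRKY33, had log2 fold changes of 1.72 (SE 0.27, edgeR adjusted p = 0.00126) and 0.68 (SE 0.15, edgeR adjusted p = 0.00994). SIB1 was at 1.25, 1.59 and 2.47 FPKM in WT and at 6.64, 6.69 and 4.71 in 17ab, without overlap. MPK3, MKK1, SIB1 and SIB2 were called in all 16 alternatives.

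Of 23 reported targets 17 were tested, 7 rose (41.2%, against 7.57% of all genes), 1 fell (GL2), and the median log2 fold change was 0.50. In each limma fit 5 of 18 rose and none fell, where 6.38% or 6.08% of all genes rose. With 1 library left out 5 to 8 of 17 rose, where 4.91% to 6.32% of all genes did. Calls were lost in 9 of the 16 alternatives for SARD1, in 7 for PR1 and in 8 for GL2. ICS1, PBS3 and NPR1, tied to salicylic acid, had log2 fold changes of 0.13, 0.02 and 0.12 and did not pass. WT replicate 3 was the highest WT library for ICS1 and PBS3, whose sign changed in 2 and 6 alternatives. For PR1 it was at 17.18 FPKM, above 17ab replicate 2 at 15.23. CBP60G and EDS1, at 0.52 and 0.40, did not pass with all libraries. Each was called in 1 alternative, the fit without WT replicate 3. PAD3, the last enzyme of camalexin synthesis and a target of WRKY33, was at 2.19, 2.35 and 2.91 FPKM in WT and at 5.17, 8.38 and 7.08 in 17ab. Its groups were apart, and its log2 fold change was 1.44 (SE 0.23, edgeR adjusted p = 0.00111). CYP71A12, a cytochrome P450 of the same pathway whose reads are in part shared with another gene, had 1.95 (SE 0.28, edgeR adjusted p = 0.000585). CYP71A13, a further P450 of the pathway, had 0.09 (SE 0.16, edgeR adjusted p = 0.768) and did not pass in any alternative.

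FRK1, a receptor kinase gene used as a marker of flagellin signalling through WRKY22 and WRKY29, was at 2.62, 3.49 and 2.33 FPKM in WT and at 8.57, 6.64 and 8.66 in 17ab. It rose, with a log2 fold change of 1.47 with an SE of 0.17 (edgeR adjusted p = 0.000143), while WRKY22 fell. PHO1, reported as repressed by WRKY6, was at 10.88, 10.33 and 7.57 FPKM in WT and at 13.28, 16.05 and 13.18 in 17ab. Its log2 fold change was 0.53 (SE 0.13, edgeR adjusted p = 0.0182), and it missed the threshold when WT replicate 3 or 17ab replicate 2 was left out. The phosphate transporter gene PHT1;1, in part with shared reads, had 1.01 (SE 0.17, edgeR adjusted p = 0.0015).

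Markers of tissue and of rapid responses moved beside these genes, and their part in the results was not tested. Of 10 root genes 6 were tested, AKT1 and PHO1 rose and GL2 fell, or 50% called against 14.1% of all tested genes. SHR, SCR and PRX39 had log2 fold changes of 0.07, -0.03 and 0.53 and did not pass. The summed FPKM of the 10 genes was 57.9 to 61.3 in WT and 66.2 to 75.0 in 17ab. PHO1 and GL2 also stand in the list of reported targets. The GL2 call was lost in 8 of the 16 alternatives. The 4 untested root genes were near 0, with counts per library of 0 to 1 in WT and 3 to 5 in 17ab for EXPA7, none and 2 to 3 for COBL9, 1 to 4 and 6 to 8 for CASP1, and 3 to 7 and 1 to 3 for CASP2. Of 10 leaf photosynthesis genes RBCS3B fell, a call lost in 8 alternatives, and their summed FPKM was 37440 to 44260 in WT and 34930 to 38960 in 17ab. Of 14 genes of rapid touch and stress responses 12 were tested, TCH3, ZAT10 and SZF2 rose, and TCH2 and TCH4 fell. The risen were 25.0% of those tested, against 7.57% of all genes, and the fallen 16.7%, against 6.51%. None of the 14 passed in DESeq2, with 5 at an unadjusted p under 0.05, where 8.06% of all genes passed. None of 12 passed in edgeR without WT replicate 2, with 7 at an unadjusted p under 0.05, where 8.67% of all genes passed.

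In the annotation 10 WRKY genes overlap a gene on the opposite strand, among them WRKY33 and, with no call, WRKY40, WRKY53 and WRKY29. No source used here gives the strand setting of the counting, so in the overlap reads of the 2 genes may not have been told apart. WRKY25, WRKY18, WRKY6, WRKY15 and WRKY22 overlap no other gene.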

How the data were processed

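Polyadenylated RNA of 3 WT and 3 17ab seedling libraries was measured. Each deposited table gives an expected count, an FPKM value and a length per gene, per the file headers. Per the submitters' processing notes, TAIR10 was the build, and the tools listed, without roles, are DESeq2, HTSeq 0.6.0 and STAR 2.4.0. The program behind the expected counts the authors deposited and its strand setting are not given in the sources used here. Of the listed expected counts 91.3% to 91.8% were whole (tolerance 1e-06). A gene absent from a table was taken as 0. The FPKM values the authors deposited were used as levels and not in the main test.

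Expected counts were rounded and tested in R 4.3.3 with edgeR 4.0.16 (quasi-likelihood, TMM, default expression filter, genotype as the single term, all 6 libraries), with Benjamini-Hochberg adjustment over all genes at 0.05. The filter kept 17854 genes with 99.78% of the counts, and the biological coefficient of variation was 8.38%. SE was taken from the size of the log2 fold change over the root of the F statistic. The labels do not say whether libraries came from separate cultures, so p-values measure the spread between these libraries, which may be technical. All 6 tables differed from each other. Intervals and floors cover counting error only. The fit was also run on simulated counts, which hold no shift of a whole library, and that run is not used as support here.

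The members, the stress-induced class and the other lists were chosen with earlier results of these data known. Values per library are given for the 6 members past the threshold and for 14 regulators, 4 of them among those 6, and other tested members by log2 fold change or range. Of each other list, counts and up to 5 called genes are given, and all called genes for the reported targets. Sequences come from the RefSeq assembly TAIR10.1 with its own annotation, and 99.2% of listed genes matched it. Alternatives were DESeq2 1.42.0, limma 3.58.1 on log2(FPKM + 1) and log2(FPKM + 0.1), DESeq2 size factors, no filter, at least 5 CPM in 3 libraries, each library left out, the replicate number as a block, and an offset for GC content and length. A robust dispersion in edgeR was added after seeing the data.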

Additional observations from a re-analysis of the deposited data

How the results depend on the processing

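The count of all genes changed was 2515, fell to 1604 with DESeq2 and was 1571 to 2090 with 1 library left out. Risen WRKY genes numbered 10 with no filter on low counts, which tests all 50, where 6.02% of all genes rose. With 1 library left out 38 to 40 members were tested and 3 to 9 rose, where 4.91% to 6.32% of all genes did. The count was lowest without WT replicate 2 (WRKY33, WRKY6, WRKY38) and highest without WT replicate 3. WRKY38, not tested in the main fit, is counted in both. Risen stress-induced genes numbered 8 with no filter and 3 to 9 with 1 library left out. Risen other genes numbered 2 with no filter, 1 at 5 CPM or more and 1 with robust dispersion. They numbered 1 with a narrower stress-induced class of 20 genes, which puts WRKY15 among the others, and 0 to 1 with 1 library left out. At 5 CPM or more 28 members were tested and 8.21% of all genes rose. With robust dispersion 38 were tested and 7.96% of all genes rose. WRKY22 fell in all 16 alternatives. The median log2 fold change of the stress-induced class was 0.55 with no filter, 0.56 at 5 CPM or more, 0.55 with DESeq2, 0.48 with limma on log2(FPKM + 0.1), 0.55 for those 20 genes and 0.22 to 0.44 with 1 library left out. That of the other class was 0.04 to 0.18 with 1 library left out. With 1 library left out, WRKY46 ranged from -0.85 to 0.56 and WRKY17 from -0.13 to 0.25, both turning without WT replicate 3. The cause was not tested. With a replicate block 1853 genes changed, and 4 WRKY genes rose and 1 fell, WRKY18 being lost. In that fit 5.87% of all genes rose and 4.51% fell. The numbers were not taken as pairs, since the labels do not say that a replicate number is shared between genotypes. Deviations from the group means correlated at -0.003, -0.108 and -0.046 between same-numbered libraries and at -0.036 to 0.081 between the others. These values cannot show whether same-numbered libraries were handled together. With the GC and length offset 42.8% of called genes rose, against 53.8% without it, and the median of all genes was -0.039. Again 4 WRKY genes rose and 1 fell, where 6.15% of all genes rose and 8.22% fell. With that offset and the replicate block together 1892 genes changed. At this depth 12 members lay near the floor of 3 counts in at least some libraries, which limits them to counts.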
